A study of Mus musculus with 10 samples.

Results

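The Wnt axis of the liver lobule was followed here through 10 genes chosen by name, with earlier results of these data known. The ligands were Wnt2, Wnt9b and Rspo3, and the Wnt target genes were Axin2, Lgr5 and Tbx3. Glul, Oat, Slc1a2 and Rhbg mark hepatocytes around the central vein. All 10 are among the 24016 RefSeq transcripts in the deposited table, with 1 transcript each. Whole liver RNA came from 10 young adult male C57BL/6 mice killed on day 6 after a tail vein injection, 5 in each group. AdVEGF mice received a serotype 5 adenovirus that drives VEGF-A165 from the CMV promoter, and AdCMV mice received the vector with that promoter but without a transgene, so both groups carried virus and no uninjected animals were included. Livers were perfused before collection and the RNA was depleted of ribosomal RNA. Because the RNA came from whole tissue, each value sums the cell types present in the perfused organ. In such bulk tissue, fewer cells of a type and less RNA per cell cannot be told apart.

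Wnt ligands bind Frizzled receptors and Lrp co-receptors, which spares beta-catenin from its destruction complex and lets it act with TCF/LEF factors in the nucleus. R-spondins bind Lgr receptors and restrain Znrf3 and Rnf43, the ubiquitin ligases that clear Frizzled from the cell surface. In the liver, endothelial cells in and around the central vein are a known source of Wnt2, Wnt9b and Rspo3. The hepatocytes nearest to that vein carry the strongest beta-catenin activity and with it the enzymes and transporters of ammonia capture.

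In AdVEGF mice, 8 of the 10 genes lay below AdCMV in every mouse: Wnt2, Wnt9b, Axin2, Tbx3, Glul, Oat, Slc1a2 and Rhbg. The mean RPKM of Glul was 4.56 times, that of Rhbg 5.00 times and that of Slc1a2 4.27 times higher in AdCMV mice, and Wnt2 was 5.52 times higher. Rspo3 and Lgr5 overlapped between the groups, with means slightly above those of AdCMV. Among all 13933 genes tested, which do not include Wnt9b, 1.29% had every AdVEGF value below every AdCMV value and 14.3% had every value above. Of the 10 genes, 9 were abundant enough for the test and Wnt9b was not, and Wnt2 and Axin2 passed the abundance filter through their AdCMV mean alone. For 7 of these 9, namely Wnt2, Axin2, Tbx3, Glul, Oat, Slc1a2 and Rhbg, limma called lower expression in AdVEGF mice, and it called none higher, while 1.54% of all genes tested were called lower and 13% higher.

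**Figure D1:**
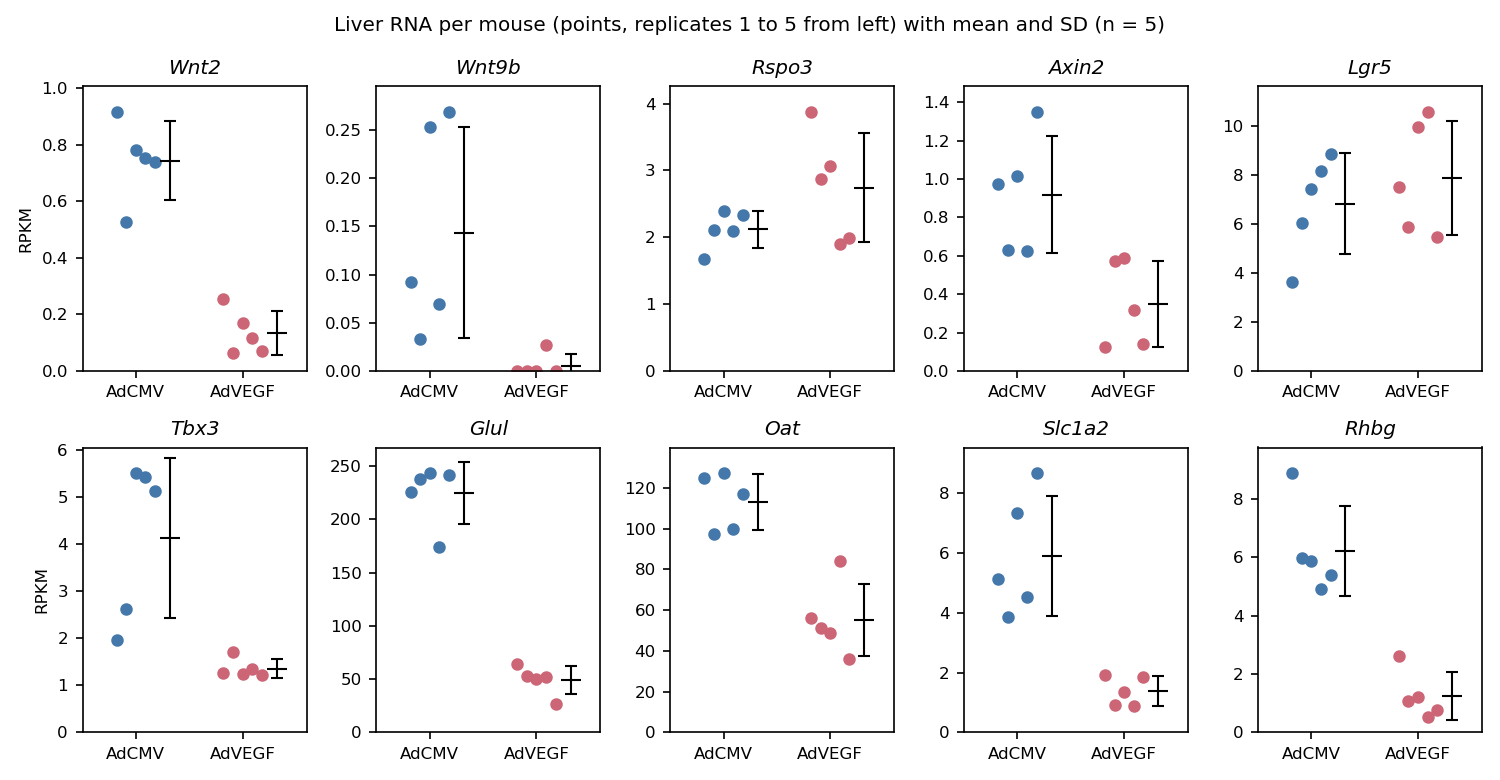
RPKM (vertical axes, linear and starting at 0, each gene on its own scale) of the 10 genes in each mouse, with AdCMV in blue, AdVEGF in red and the mean with its SD (n = 5) beside the points. Glul lies between 173.7 and 243.2 RPKM in AdCMV mice and between 27.1 and 63.8 in AdVEGF mice, whereas the points of Rspo3 and of Lgr5 overlap.

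The sequencing depth and the make-up of the libraries bear on these values. Recovered totals of mapped tags were 5758962 to 13494001 in AdCMV and 5596566 to 8133954 in AdVEGF libraries, at which 3 reads on 1 kb of transcript equal 0.222 to 0.536 RPKM. The 21 major urinary protein genes took 36.6% ± 12.2 (SD, n = 5) of the reads in AdCMV and 16.3% ± 7.92 in AdVEGF libraries. On deposited RPKM the log2 fold changes of all genes had a median of 0.38, and it was -0.0044 after median-ratio scaling, which sets a typical gene equal between libraries. Vegfa itself was 18.1 ± 3.49 RPKM in AdCMV and 31.8 ± 4.65 in AdVEGF mice (log2 fold change 0.82, limma adjusted p = 0.00487). The labels do not say from which species the transgene came, but the authors measured VEGF protein with an assay for the human form. How far the reads of the transgene count toward this mouse row is not known.

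Promoters were taken from the RefSeq table of GRCm38.p6, a later build than the mm9 coordinates of the expression table, which matched 6 of the 10 genes: Wnt2, Wnt9b, Axin2, Glul, Oat and Slc1a2. The 250 bases before the transcript start are shown, 5′ to 3′ on the gene's own strand, for the 4 matched targets and pericentral genes that fell in AdVEGF mice, to show how their promoters differ in composition. Capitals mark a match to CTTTGAT or CTTTGAA, the core letters of a TCF/LEF site, which share their first bases and were searched on both strands.
Axin2 (chr11:108920099-108920348, plus strand): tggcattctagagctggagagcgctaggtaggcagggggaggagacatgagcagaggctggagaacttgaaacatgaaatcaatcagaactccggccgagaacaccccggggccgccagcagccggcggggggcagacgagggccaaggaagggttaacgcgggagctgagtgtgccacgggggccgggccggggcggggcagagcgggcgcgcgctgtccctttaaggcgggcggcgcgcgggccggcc
Glul (chr1:153899679-153899928, plus strand): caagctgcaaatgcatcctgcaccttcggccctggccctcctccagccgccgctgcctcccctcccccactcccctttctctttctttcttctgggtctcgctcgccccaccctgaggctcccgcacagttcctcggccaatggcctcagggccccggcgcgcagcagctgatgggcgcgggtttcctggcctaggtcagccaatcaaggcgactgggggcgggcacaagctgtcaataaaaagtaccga
Oat (chr7:132576399-132576648, minus strand): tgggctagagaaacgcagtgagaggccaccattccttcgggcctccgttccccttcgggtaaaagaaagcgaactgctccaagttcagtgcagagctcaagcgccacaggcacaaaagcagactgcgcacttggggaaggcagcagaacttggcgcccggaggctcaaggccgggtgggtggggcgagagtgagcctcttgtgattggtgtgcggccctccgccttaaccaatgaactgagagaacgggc
Slc1a2 (chr2:102706188-102706437, plus strand): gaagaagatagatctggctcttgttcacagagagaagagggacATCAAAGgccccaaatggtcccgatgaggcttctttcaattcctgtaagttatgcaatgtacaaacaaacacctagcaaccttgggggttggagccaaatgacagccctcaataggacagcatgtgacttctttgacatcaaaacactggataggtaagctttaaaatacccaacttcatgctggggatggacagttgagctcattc
The letters were present in 1 of the 6 promoters, that of Slc1a2, where CTTTGAT ran on the opposite strand and began 207 bases before the start. Either motif was held by 7.48% of the 32851 promoters of the table, CTTTGAT by 3.21% and CTTTGAA by 4.46%. The GC content was 69.2% for Axin2, 64.8% for Glul and 60% for Oat but 44.8% for Slc1a2, and the number of CpG dinucleotides was 24, 15, 14 and 1 in the same order. A match describes letters only, and its absence says that they are not within this window.

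Wnt2, a secreted ligand of the liver's endothelial cells, is transcribed from the minus strand at chr6:17938940-17980445 (mm9). Its RPKM in AdCMV replicates 1 to 5 was 0.917, 0.527, 0.783, 0.755 and 0.741, from 9 to 15 reads a mouse. In AdVEGF replicates 1 to 5 it was 0.253, 0.064, 0.170, 0.117 and 0.070, from 1 to 3 reads a mouse. The AdVEGF mouse with the most Wnt2 thus stayed under the AdCMV mouse with the least, and the ligand was near the detection limit in all 5 AdVEGF mice. The means were 0.745 ± 0.140 and 0.135 ± 0.0786 RPKM (SD, n = 5), and the fall was -1.89 on the log2(RPKM + 0.1) scale (SE 0.39, limma adjusted p = 0.00205). Pooled over mice, 66 reads in AdCMV stood against 9 in AdVEGF, a depth-corrected ratio of 5.61 with an exact 95% interval of 2.78 to 12.8 that covers counting error only. The call was lost with a pseudocount of 1, where the change was -0.62 on the log2 scale.

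Wnt9b, the second Wnt ligand known from the central vein, lies at chr11:103588677-103611135 on the minus strand and was the scarcest of the genes. AdCMV replicates 1 to 5 held 0.092, 0.033, 0.253, 0.070 and 0.269 RPKM, from 2 to 9 reads a mouse. Among AdVEGF mice a single read was found in replicate 4, which gave 0.027 RPKM, and the other 4 mice had 0 reads. At their depths 0 reads allow up to 0.0895 to 0.119 RPKM, and 3 of the AdCMV mice were under the upper of these limits. Pooled, 24 reads stood against 1, a ratio of 18.4 with an exact 95% interval of 2.99 to 755. This interval covers counting error in pooled reads only, and not the spread between mice, which ran from 2 reads in the deepest AdCMV library to 9 in a shallower one. Wnt9b did not reach the abundance filter, and without that filter limma gave a log2 fold change of -1.10 (SE 0.30, adjusted p = 0.022), in a fit that called 1.05% of 18554 genes lower and 10.4% higher. With median-ratio scaling added it was -1.17 (SE 0.25, limma adjusted p = 0.00726), in a fit that called 2.39% lower and 6.36% higher. The exact permutation test over mice gave p = 0.00794, the smallest that 5 against 5 mice allow.

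Rspo3, the R-spondin that amplifies Wnt signals in this zone, lies at chr10:29172913-29255673 on the minus strand. Values in AdCMV replicates 1 to 5 were 1.68, 2.11, 2.39, 2.09 and 2.33 RPKM. Those in AdVEGF replicates 1 to 5 were 3.88, 2.87, 3.07, 1.90 and 1.99 RPKM. The first 3 AdVEGF mice were above all AdCMV mice and the last 2 were within their range. The means were 2.12 ± 0.280 and 2.74 ± 0.818 RPKM, and the log2 fold change of 0.32 (95% interval -0.19 to 0.83) did not pass limma's test (adjusted p = 0.338). With median-ratio scaling it was -0.067 (95% interval -0.50 to 0.37), so its sign depended on scaling, and in both scales the interval excluded a fall as large as that of Wnt2. Rspo1, Rspo2 and Rspo4 stayed below the filter, with at most 0.294 RPKM in any mouse.

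The ligands were also compared with one another within each mouse, by ratios of RPKM + 0.1, which depend little on the scaling of a library but, for scarce genes, strongly on the value added. The log2 ratio of Rspo3 to Wnt2 was 1.40 on average in AdCMV and 3.61 in AdVEGF mice, a difference of 2.21 (SE 0.23) with all 5 AdVEGF mice above all AdCMV mice (exact permutation p = 0.00794, 0.0238 after Benjamini-Hochberg adjustment over 9 pairs). Rspo3 likewise rose relative to Wnt9b by 1.41 (SE 0.35, adjusted exact permutation p = 0.0357), with 4 of 5 AdVEGF mice above all AdCMV mice. The size of both was set in large part by the pseudocount: with 1 and with 0.01 in place of 0.1, the difference was 0.86 and 2.86 for Rspo3 to Wnt2 and 0.42 and 3.55 for Rspo3 to Wnt9b, and both pairs passed the exact permutation test each time (adjusted p from 0.0143 to 0.0446). For Wnt9b relative to Wnt2 the difference was 0.80 (SE 0.35, adjusted exact permutation p = 0.107), which did not pass. It was 0.44 with a pseudocount of 1, which passed (adjusted exact permutation p = 0.0143), and -0.69 with 0.01, which did not (adjusted exact permutation p = 0.449), so no direction can be given for this pair.

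Axin2, a negative feedback gene of beta-catenin signaling and one of its most general targets, lies at chr11:108781663-108812095 on the plus strand. Its RPKM in AdCMV replicates 1 to 5 was 0.976, 0.628, 1.02, 0.625 and 1.35. In AdVEGF replicates 1 to 5 it was 0.126, 0.571, 0.589, 0.319 and 0.140, from 3 to 18 reads a mouse. The groups did not overlap, but AdVEGF replicates 2 and 3 were just under the lowest AdCMV mice. The means were 0.919 ± 0.304 and 0.349 ± 0.224 RPKM, a log2 fold change of -1.29 (SE 0.41, limma adjusted p = 0.0302). This call was the least firm of the 7, since it was lost without AdCMV replicate 1 or 5 and without AdVEGF replicate 1 or 5 (adjusted p = 0.0623 to 0.0767), whereas with median-ratio scaling it was -1.62 (SE 0.35, adjusted p = 0.00462).

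Tbx3, a transcription factor that hepatocytes express under Wnt control, lies at chr5:120121242-120134733 on the plus strand. AdCMV replicates 1 to 5 held 1.97, 2.62, 5.51, 5.43 and 5.14 RPKM. AdVEGF replicates 1 to 5 held 1.27, 1.72, 1.24, 1.35 and 1.22 RPKM. AdCMV mice fell into a lower pair and a higher trio, and the lower pair was still above all AdVEGF mice, which lay close together. The means were 4.13 ± 1.70 and 1.36 ± 0.206 RPKM, with a log2 fold change of -1.43 (SE 0.29, limma adjusted p = 0.00184).

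Lgr5, a receptor for R-spondins and a Wnt target of pericentral hepatocytes, lies at chr10:114887370-115024836 on the minus strand. Values in AdCMV replicates 1 to 5 were 3.62, 6.05, 7.41, 8.16 and 8.85 RPKM. Those in AdVEGF replicates 1 to 5 were 7.51, 5.86, 9.94, 10.6 and 5.48 RPKM. AdVEGF replicates 3 and 4 were the highest of all 10 mice and the other three were within the AdCMV range. The means were 6.82 ± 2.07 and 7.87 ± 2.32 RPKM, and the log2 fold change was 0.22 on deposited RPKM (95% interval -0.34 to 0.78, limma adjusted p = 0.554) and -0.18 after median-ratio scaling (95% interval -0.71 to 0.35). Its sign therefore turned with the scaling, and both intervals excluded a fall of 1 on the log2 scale. The row of A930009A15Rik overlaps Lgr5 on the other strand but was at most 0.179 RPKM. The other R-spondin receptor Lgr4 averaged 8.33 RPKM in AdCMV and 7.74 in AdVEGF mice (log2 fold change -0.094), and neither it nor Rnf43 nor Znrf3 was called.

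Glul, glutamine synthetase, which captures ammonia in the last hepatocyte layers before the central vein, lies at chr1:155747059-155756853 on the plus strand. Its RPKM in AdCMV replicates 1 to 5 was 225.9, 237.8, 243.2, 173.7 and 241.8. In AdVEGF replicates 1 to 5 it was 63.8, 53.3, 50.1, 51.9 and 27.1. Even the lowest AdCMV mouse was far above the highest AdVEGF mouse. The means were 224 ± 29.2 and 49.2 ± 13.5 RPKM, so that AdVEGF livers held 21.9% of the AdCMV level (log2 fold change -2.23, SE 0.23, limma adjusted p = 1.92e-06). The row of Mir8114 lies inside Glul on the same strand and followed it, at 98.6 RPKM in AdCMV and 19.9 in AdVEGF mice.

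Oat, ornithine aminotransferase, a mitochondrial enzyme that yields glutamate in the same cells, lies at chr7:139749158-139768081 on the minus strand. AdCMV replicates 1 to 5 held 124.7, 97.6, 127.1, 99.9 and 117.0 RPKM. AdVEGF replicates 1 to 5 held 56.4, 51.3, 48.9, 84.0 and 36.2 RPKM. The groups did not overlap, with AdVEGF replicate 4 nearest to the AdCMV mice. The means were 113 ± 13.8 and 55.4 ± 17.7 RPKM, a log2 fold change of -1.08 (SE 0.22, limma adjusted p = 0.00164). Without AdVEGF replicate 5, the lowest, it was -0.94 and past the fold threshold no longer.

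Slc1a2, a glutamate transporter of the cell membrane, lies at chr2:102546595-102630941 on the plus strand. Values in AdCMV replicates 1 to 5 were 5.13, 3.85, 7.31, 4.52 and 8.65 RPKM. Those in AdVEGF replicates 1 to 5 were 1.91, 0.919, 1.35, 0.884 and 1.84 RPKM. All AdVEGF mice were well below the lowest AdCMV mouse. The means were 5.89 ± 2.02 and 1.38 ± 0.488 RPKM, with a log2 fold change of -2.02 (SE 0.28, limma adjusted p = 5.5e-05).

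Rhbg, an ammonium transporter of the Rhesus family, lies at chr3:88046796-88058606 on the minus strand. Its RPKM in AdCMV replicates 1 to 5 was 8.87, 5.97, 5.88, 4.91 and 5.39. In AdVEGF replicates 1 to 5 it was 2.62, 1.06, 1.22, 0.518 and 0.782. Replicate 1 was the highest mouse of its group on both sides, and the groups stayed apart. The means were 6.20 ± 1.55 and 1.24 ± 0.818 RPKM, with a log2 fold change of -2.39 (SE 0.33, limma adjusted p = 4.1e-05), which put Rhbg at rank 45 from the lowest of 13933 genes, ahead of Glul at 57, Slc1a2 at 70 and Wnt2 at 84.

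**Figure D2:**
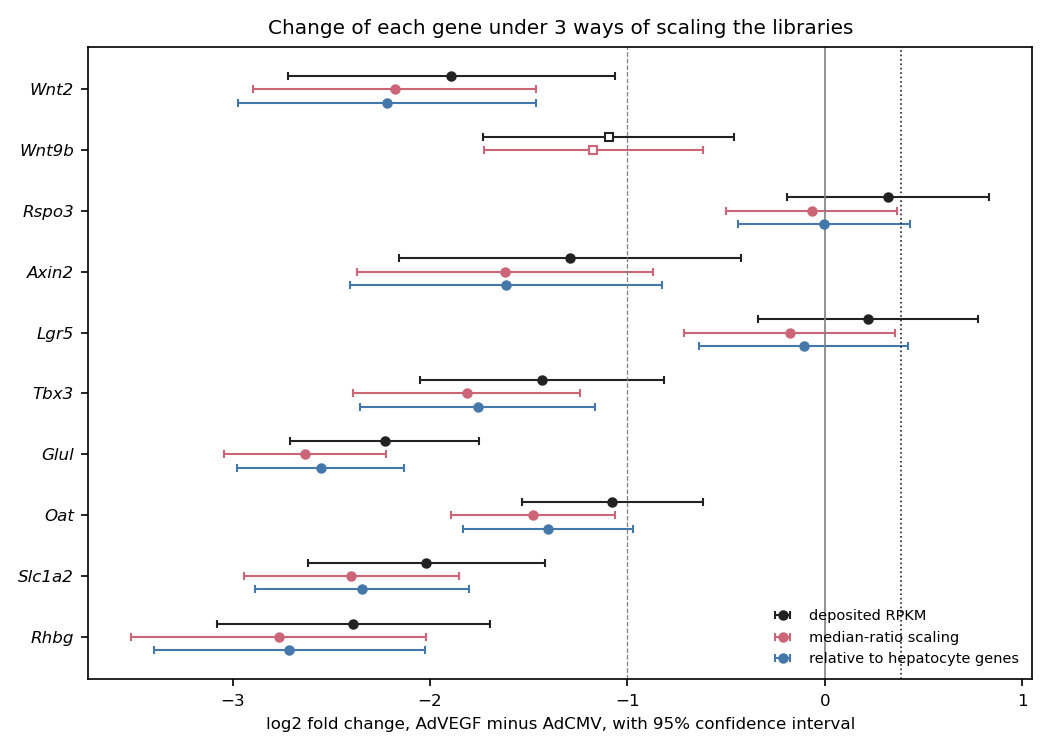
Log2 fold change, AdVEGF minus AdCMV, of each gene with its 95% confidence interval on deposited RPKM (black), after median-ratio scaling (red) and relative to hepatocyte genes (blue), with open squares for Wnt9b from the fit without a filter. The solid line marks 0, the dashed line the fold threshold of -1 and the dotted line the median of all genes on deposited RPKM, 0.38, and Rspo3 and Lgr5 lie around 0 while the other 8 lie to the left.

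The calls did not rest on how the libraries were scaled. After median-ratio scaling the same 7 genes were called lower and none higher, among 3.14% of all genes called lower and 7.77% called higher, with log2 fold changes from -1.48 for Oat to -2.77 for Rhbg, and the 8 genes again did not overlap between groups. In that scale 7.16% of all genes had every AdVEGF value below every AdCMV value. When each library was set to its own level of 11 hepatocyte genes that are not zonal, such as Ttr and Ambp, the same 7 genes were again lower and none higher, among 2.8% of all genes called lower and 7.97% called higher, with -2.55 for Glul, -2.34 for Slc1a2, -1.40 for Oat and -1.61 for Axin2. Of these 11 hepatocyte genes themselves, 1 was called higher on deposited RPKM (Ahsg, 1.67) and none lower. These counts were near the shares of all genes, 13% and 1.54%. Their median log2 fold change was 0.39 on deposited RPKM. The summed RPKM of the 11 was 6847 to 9602 in AdCMV and 11688 to 15854 in AdVEGF mice.

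The ligands were set beside endothelial genes in the same way. Of 14 pan-endothelial markers, 13 were called higher in AdVEGF mice on deposited RPKM, beside 13% of all genes tested. Emcn (log2 fold change 5.33) and Cldn5 (3.19) led them. The summed RPKM of the 14 was 56.7 to 103.2 in AdCMV and 379.3 to 478.3 in AdVEGF mice. Relative to the mean of these markers, the log2 fold change was -4.42 for Wnt2 (SE 0.36) and -2.21 for Rspo3 (SE 0.23). The median of all genes in that scale was -2.14 and 92% of them were called lower, so the value of Rspo3 was near that of a typical gene and the value of Wnt2 was lower. Of 10 sinusoidal endothelial markers 9 were called higher, with Oit3 (2.10) and Lyve1 (2.03) in front, and the remaining one, Dnase1l3, a secreted DNase, had a log2 fold change of -0.98 without overlap. After median-ratio scaling 7 of the 10 were called higher and Dnase1l3 was called lower (-1.37), beside 7.77% and 3.14% of all genes tested. Of 6 markers of central vein endothelium, 5 were tested and 3 called higher (Cd34, 5.84, Fabp4, 4.11, and Ptgs1, 1.56), while Kit (0.53) and Thbd (0.62) were not called and Cdh13 was below the filter. Cd34 passed the abundance filter through its AdVEGF mean alone. Cd34 and Fabp4 also mark capillaries elsewhere, so the list does not single out the central vein. The part of these cell type changes in the levels of the ligands was not tested.

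Relative to Glul within each mouse, the targets and pericentral genes did not all change alike. The log2 ratio of Lgr5 to Glul rose by 2.45 (SE 0.33) and that of Oat to Glul by 1.15 (SE 0.19), with all 5 AdVEGF mice above all AdCMV mice in both (exact permutation p = 0.00794, 0.0238 adjusted over 9 pairs). For Axin2 the difference was 0.94 (SE 0.38, adjusted exact permutation p = 0.0857) and for Tbx3 0.80 (SE 0.39, adjusted exact permutation p = 0.112), which did not pass. The transporters moved closest to Glul, with 0.21 for Slc1a2 (SE 0.40) and -0.16 for Rhbg (SE 0.34), both with an adjusted exact permutation p of 0.698. Those of Axin2, Tbx3 and Slc1a2 depended on the pseudocount. With 1 they were 1.70, 1.15 and 0.70 and passed, and with 0.01 they were 0.65, 0.74 and 0.14 and did not (adjusted exact permutation p = 0.31, 0.214 and 0.77). The value of Rhbg was 0.48 and -0.26 in these settings and passed in neither, whereas Lgr5 and Oat passed in both.

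**Figure D3:**
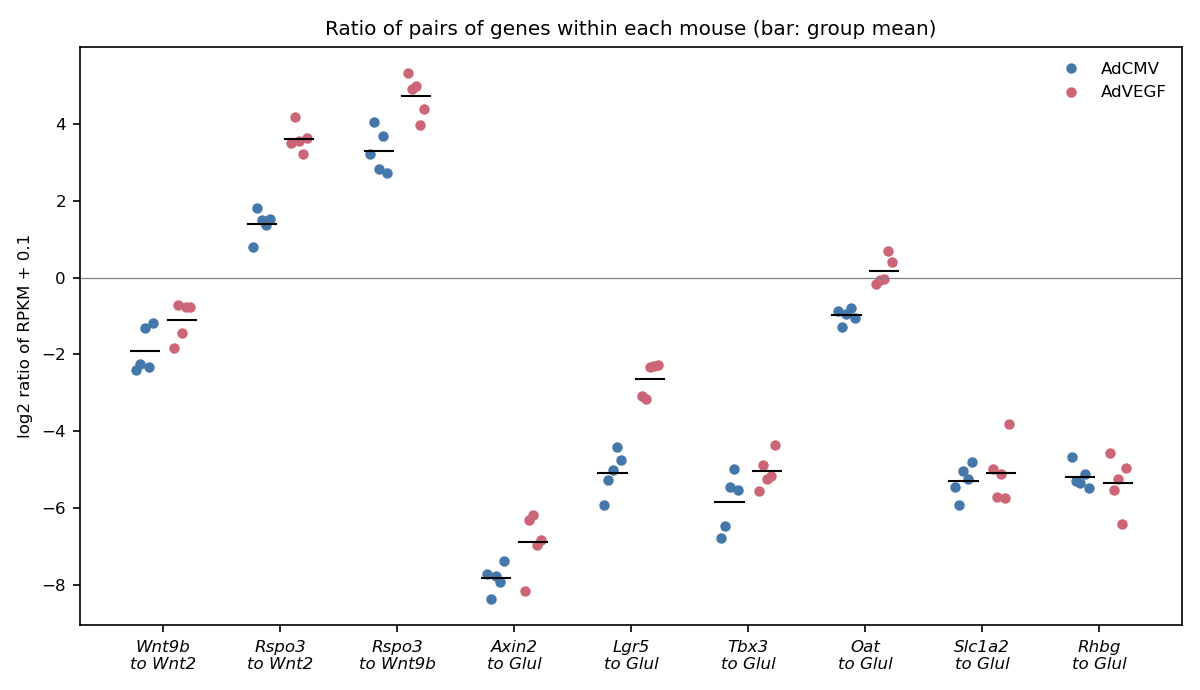
Log2 ratio of RPKM + 0.1 of 9 pairs of genes within each mouse, with AdCMV in blue, AdVEGF in red and a bar at each group mean. The groups separate fully for Rspo3 to Wnt2, Lgr5 to Glul and Oat to Glul, and they overlap for the other 6 pairs.

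The order of the levels changed accordingly. In AdCMV mice mean RPKM, a level per transcript length, ran from Glul and Oat through Lgr5, Rhbg, Slc1a2, Tbx3, Rspo3 and Axin2 down to Wnt2 and Wnt9b. Ranges of neighbours overlapped from Lgr5 to Rspo3 and between Axin2 and Wnt2. In AdVEGF mice Oat came first, though it exceeded Glul in 2 of 5 mice, and Lgr5 and Rspo3 followed with no overlap between Glul, Lgr5 and Rspo3. Rspo3, Slc1a2, Tbx3, Rhbg, Axin2 and Wnt2 then overlapped each with the next.

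The genes with the profile nearest to Glul over the 10 mice, by root mean square distance of centred log2(RPKM + 0.1), were Sycp3 (0.290), Hopx (0.365) and Socs1 (0.392), among 12268 genes searched. Hopx was also nearest to Wnt2 (0.295), ahead of Apol9a (0.379) and Glul itself (0.381). For Axin2 they were Pex11a (0.366), Slc13a3 (0.419) and Dio1 (0.449). These distances describe profiles that all hold the difference between the groups.

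Of 19 other genes known to be enriched around the central vein, all tested, 2 were called lower on deposited RPKM and none higher: Aldh1a1, a retinal dehydrogenase (440 to 173 RPKM, log2 fold change -1.33), and Slco1b2, an anion transporter (205 to 103 RPKM, -1.06), both without overlap. In that scale 1.54% of all genes tested were called lower and 13% higher. After median-ratio scaling these shares were 3.14% and 7.77%. Of the 19, 15 had a log2 fold change below 0 and 4 above, and the widest was that of Cyp1a2, a cytochrome of drug metabolism (83.7 ± 27.6 to 34.7 ± 20.2 RPKM, -1.89, SE 0.71), which overlapped between the groups and was not called in limma's test (adjusted p = 0.0602). After median-ratio scaling Slc13a3, Cyp2e1, Cyp7a1 and Prodh were called lower as well, and all 19 had a negative log2 fold change, with a median of -0.71 beside -0.0044 for all genes. Cyp2e1, the ethanol-oxidizing cytochrome, averaged 377 ± 142.3 RPKM in AdCMV and 223 ± 75.9 in AdVEGF mice. Rgn averaged 221 and 215 RPKM (log2 fold change -0.23) and was not called. The fall of Cyp1a2 was uneven, since its AdVEGF mice ran from 1.37 to 54.5 RPKM. Of 24 periportal genes, 1 was called higher (Sox4, 3.04) and 1 lower (Dio1, -1.21), in both scales, and their median was -0.086 after median-ratio scaling. Arg1 (log2 fold change 0.46) and Ass1 (0.63), enzymes of the urea cycle, were not called. Neither were G6pc (-1.47, and -1.88 after median-ratio scaling) and Cyp2f2 (-0.74 and -1.15), which had lower means in AdVEGF mice. Of the 24 periportal genes, 6 had a log2 fold change below 0 and 18 above on deposited RPKM. After median-ratio scaling 13 were below and 11 above. Sox4 is also expressed outside hepatocytes.

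**Figure D4:**
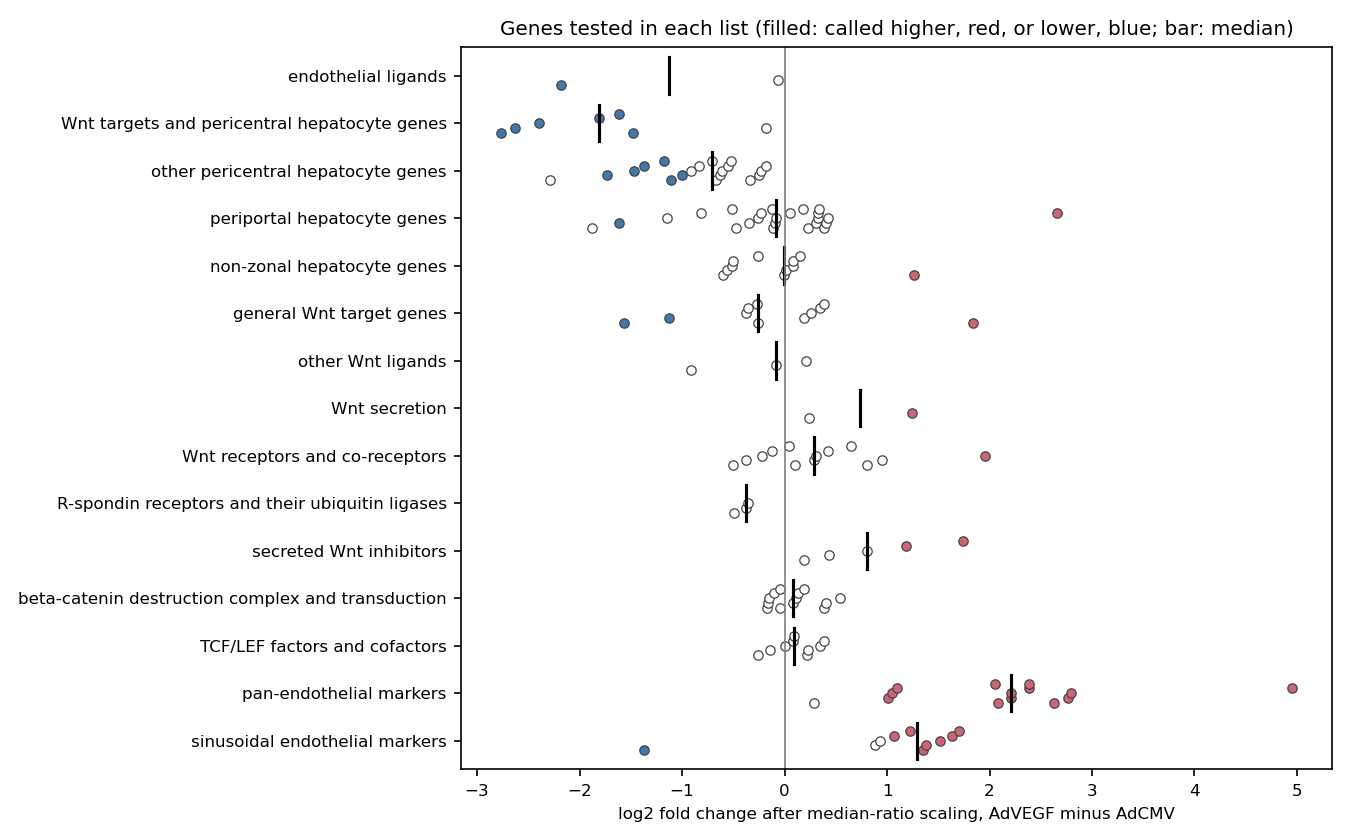
Log2 fold change after median-ratio scaling, AdVEGF minus AdCMV, of each gene tested in 15 lists, with genes called higher filled red, genes called lower filled blue and a bar at each list's median. The Wnt targets and pericentral genes have 6 of 7 points called lower, the 19 other pericentral genes all lie below 0, and the endothelial lists lie mostly above 1.

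Among the other ligands, receptors, inhibitors and transducers of the pathway, no gene was called lower in either scale. On deposited RPKM 13% of all genes tested were called higher and 1.54% lower, and after median-ratio scaling 7.77% and 3.14%. Of 17 other Wnt ligands only Wnt4, Wnt5a and Wnt5b were tested and none was called, with Wnt4 at 20.03 RPKM in AdCMV and 30.5 in AdVEGF mice (log2 fold change 0.61). Wls, which carries Wnts to the cell surface, was 2.28 and 6.85 RPKM (log2 fold change 1.63) and was called higher in both scales, whereas Porcn, which attaches their lipid, was not called (0.57). Of 18 receptors and co-receptors, 13 were tested and 4 called higher on deposited RPKM: Gpr124 (2.33), Fzd4 (1.35), Ror1 (1.14) and Fzd6 (1.02). Gpr124 alone kept its call after median-ratio scaling, a count near the share of all genes. Of 13 secreted inhibitors, 5 were tested and 3 called higher, namely Frzb (2.11), Dkk2 (1.52) and Dkk3 (1.17), and Frzb and Dkk2 kept their calls in the other scale. Ror1 and Dkk2 passed the abundance filter through their AdVEGF mean alone. Notum, a Wnt deacylase, averaged 3.32 RPKM in AdCMV and 5.04 in AdVEGF mice and was not called. None of 13 tested genes of the destruction complex and its transduction and none of 9 TCF/LEF factors and cofactors was called. Tcf7l2 had a log2 fold change of 0.49. Ctnnb1, beta-catenin itself, ran from 24.4 to 48.7 RPKM in AdCMV and from 61.2 to 72.5 in AdVEGF mice, without overlap. Its log2 fold change was 0.95 (limma adjusted p = 0.00289), so it missed a call by the fold threshold alone. After median-ratio scaling the change of Ctnnb1 was 0.54 (limma adjusted p = 0.00405).

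General Wnt target genes, some of which are also in the pathway lists above, did not move as a block. Of 16 listed, 11 were tested, and Ccnd1, cyclin D1, was called higher (19.6 ± 8.71 to 95.2 ± 47.2 RPKM, log2 fold change 2.24), while Tnfrsf19 was called lower (-1.30). After median-ratio scaling Sp5 (-1.12) was called lower too, and the median of the 11 was -0.26. Tnfrsf19 and Sp5 passed the abundance filter through their AdCMV mean alone. Rnf43 (-0.0082), Znrf3 (0.0079) and Nkd1 (0.086) were among those not called in either scale. The shares of all genes called higher and lower were 13% and 1.54% on deposited RPKM. They were 7.77% and 3.14% after median-ratio scaling. Of 10 genes of the endothelial Wnt and Norrin axis, 7 were tested and Sox17 (3.67), Gpr124 and Fzd4 were called higher. Sox17, and Bmp6 of the next list, passed the abundance filter through their AdVEGF mean alone. Of 8 genes in a mixed list of endothelial transcription factors and signals and of Hamp, the iron hormone that hepatocytes make under BMP signals, all were called higher on deposited RPKM, led by Dll4 (4.14), Bmp6 (2.21), Bmp2 (2.08) and Hamp (1.88), and 5 after median-ratio scaling.

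Markers of other cells moved as well, beside 13% of all genes tested called higher and 1.54% called lower on deposited RPKM. Of 9 stellate cell markers tested 8 were called higher, with summed RPKM of 83.4 to 128.1 in AdCMV and 173.0 to 337.2 in AdVEGF mice, and of 10 Kupffer cell markers 3 were, with 119.6 to 248.6 and 238.7 to 364.7. Of 5 cholangiocyte markers tested only Spp1 was called higher (3.91). Of 9 T and NK cell markers 6 were tested and 5 called lower, led by Gzmb (-1.98), and all 5 overlapped between the groups. Below the filter, mean RPKM was higher in AdVEGF mice for Ncr1 (0.113 to 0.377) and Klrb1c (0.196 to 0.320). It was lower for Cd4 (0.402 to 0.264). The summed RPKM of the 9 markers was 8.15 to 32.8 in AdCMV and 6.24 to 14.3 in AdVEGF mice. No marker of these cell type lists was at 0 in every mouse of a group, and the part of these cells in the pericentral genes was not tested.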

How the data were processed

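Liver RNA-Seq of 5 AdVEGF and 5 AdCMV mice was analysed, grouped by the labels. The authors mapped reads with TopHat and counted them with HOMER on mm9, per the submitters' processing notes, and deposited RPKM (reads scaled to transcript length and library total) for each transcript and mouse. Whether strand was used in counting is not given in the sources used here. Their own fold change and FDR columns were not used.

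Library totals and reads were recovered from the steps of the RPKM values, of which 99.918% to 99.994% were whole within 0.1 read. The main test was limma 3.58.1 (R 4.3.3, lmFit and eBayes with trend) on log2(RPKM + 0.1). A mean above 0.5 RPKM was required in either group, and 5 rows without a symbol were left out. Calls needed a Benjamini-Hochberg adjusted p below 0.05 over all 13933 genes and a log2 fold change beyond ±1. These fold changes understate the change of scarce genes. Pairs of genes were compared within mice by 2-sided exact permutation tests (Python 3.11.15, scipy 1.17.1). The script was checked on simulated data, where 178 of 200 changed genes were recovered with 10 false calls. Those changes were set only in genes with an AdCMV mean above 1 RPKM, and no shift in library make-up was simulated. The check therefore does not cover genes as scarce as Wnt2, Wnt9b and Axin2.

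Members and lists were chosen with earlier results of these data known. All 10 members are given with every value. Of each list, up to 4 called genes with the largest change and up to 2 uncalled genes with the highest RPKM are named, apart from genes that only a second scaling called and the genes shown to illustrate a list. Profiles were compared for Wnt2, Axin2 and Glul. The symbol Tf of the hepatocyte list had no row. Alternatives were other scalings, filters and pseudocounts, treat, voom on recovered reads, a replicate block and leaving out each mouse, and the fits without a filter on scaled values or reads, and median-ratio scaling with each mouse left out, were added after seeing the data.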

Additional observations from a re-analysis of the deposited data

Results flagged for a closer look

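Among 20 sets of 5 mice (10 genes in 2 groups), 4 held a mouse whose gap to the next, as a share of the range, was above Dixon's critical value of 0.71, where chance marks about 1 in 20. For Glul, AdCMV replicate 4 stood apart as the lowest of its group at 173.7 RPKM, still above all AdVEGF mice. For Rhbg, AdCMV replicate 1 was apart as the highest at 8.87 RPKM. For Tbx3, AdVEGF replicate 2 was apart as the highest at 1.72 RPKM. For Wnt9b, AdVEGF replicate 4 was apart at 0.027 RPKM, the only mouse of its group with a read. With 0 reads in the other 4 mice, any read gives a share of 1.0. This flag was therefore fixed in advance and cannot be set against the chance rate.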

How the results depend on the processing

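Of the 10 genes, Glul, Slc1a2 and Rhbg kept their calls in all 34 alternatives, with log2 fold changes from -2.74 to -2.03, -2.56 to -1.51 and -3.06 to -1.73. The number of genes among the 9 tested that were called lower was 7, and it was 3 with treat, which asks whether a change exceeds the fold threshold itself and left Glul, Slc1a2 and Rhbg. With a pseudocount of 1, Wnt2 (-0.62) and Axin2 (-0.51) were no longer called. Leaving out 1 mouse gave 5 to 7 called lower (5 without AdVEGF replicate 5) and 0 to 0 called higher on deposited RPKM, 7 to 7 lower after median-ratio scaling, 7 to 7 relative to hepatocyte genes and 9 to 9 relative to endothelial genes, a scale in which 92% of all genes were called lower. With a filter above 1 RPKM, Wnt2 and Axin2 were not tested.

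Over all genes tested, 1808 were called higher and 214 lower, against 1082 and 438 with median-ratio scaling, 1197 and 353 with upper quartile scaling, 985 and 558 with library totals without the major urinary protein genes, 503 and 36 with treat and 1180 and 444 with median-ratio scaling and no filter. A pseudocount of 1 gave 954 higher. Without 1 mouse, 1425 to 2357 were higher and 178 to 225 lower. The cause of these shifts was not tested. Samples with the same replicate number correlated by 0.0076 to 0.291 in their deviations and 3 of 5 matched their own number best. The labels name no pairs, so the main test took none. Whether samples of the same number share a structure was not tested. The replicate block gave 1933 higher and 256 lower, with 7 of the 9 genes lower, and with median-ratio scaling 1081 and 475.

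The limits are those of depth for Wnt2, Wnt9b and Axin2, which rest on few reads in AdVEGF mice. Without replicates of the virus-free state, the groups compare 2 vectors.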
